A study of Drosophila melanogaster with 6 samples.

Results

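The vacuolar ATPase (V-ATPase) genes of Drosophila embryonic macrophages are described here, taken as every gene whose name in the deposited tables starts with Vha: 33 of 17494 genes. From background knowledge, 17 of them were classed as widely expressed subunit genes and 16 as tissue-restricted or additional paralogues. The samples are RNA-seq libraries of macrophages sorted by FACS from stage 11 embryos that had been kept at 29°C. The 3 control samples carried the driver srpHemo-Gal4 and the marker srpHemo-3xmCherry, and the 3 mac>DfosDN samples carried the same driver and marker together with UAS-DfosDN, so the driver and the marker are shared by both groups. DfosDN is a truncated Dfos protein, used to block the transcription factor Dfos in the cells that make it. It is made where srpHemo drives Gal4, in the macrophages. Each sample pools the cells of many embryos, and the study's text calls the 3 samples of a group biological replicates.

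The V-ATPase is a rotary proton pump. The peripheral V1 sector hydrolyses ATP and turns a central stalk, and the membrane V0 sector carries protons through subunit a as its ring of c subunits turns. The pump acidifies endosomes, lysosomes and phagosomes, and phagocytes such as macrophages depend on it to digest what they take up. In flies, as in mammals, several subunits are encoded by more than 1 gene, and the extra copies tend to be used in particular tissues such as the testis, the gut or the nervous system.

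The deposited values are on the TPM scale, on which reads are divided by exon length and scaled to a fixed sum, but values of 1 or more had lost their decimal point. Each was restored to the number of reads it stands for, and a level below is given as restored reads, as restored TPM, or as RPM, which is scaled to the library total but not divided by length. TPM and RPM were further scaled by TMM factors between 0.953 and 1.06 per sample. The restored reads came to between 8485840 and 10096870 per sample. Of the 33 V-ATPase genes, 8 were at 0 in all samples, 25 were restored and 0 were set aside as uncertain. Macrophage markers summed to between 16310 and 22600 TPM in the control samples and between 9904 and 14040 TPM in the mac>DfosDN samples. Most of this was NimC4, with means of 15520 TPM in control and 9345 TPM in mac>DfosDN. Of the 14 macrophage markers, 13 passed the filter on low reads. The 14th, eater, had between 0 and 63 reads. Crystal cell markers summed to between 5048 and 14240 TPM against 1998 to 2668 TPM, mostly from PPO2, with means of 9485 and 2022 TPM. kay, the gene that encodes Dfos, had 368, 784 and 665 reads in the control samples and 941, 945 and 866 in the mac>DfosDN samples, and reads of the transgene are not told apart from those of the gene.

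Macrophages expressed a complete set of V1 and V0 subunits, most of it from 1 gene per subunit except for subunit a. The V-ATPase genes took between 0.317% and 0.361% of all reads in a sample. Of the 192706 reads they had over the 6 samples, 97.3% fell on the most-read gene of each of 15 subunits and accessory proteins. Of the 17 widely expressed genes, 16 had at least 10 reads in every sample. The exception was VhaM9.7-a, a gene for the small V0 subunit e, with 0 to 7 reads. Of the 16 tissue-restricted genes, 2 had at least 10 reads in every sample, Vha100-1 and VhaM9.7-c, and 8 had no read at all.

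The 8 genes without a read were Vha16-2, Vha16-4 and Vha16-5 (copies of the c subunit), Vha36-2 (D), Vha100-3 (a), VhaM9.7-d (e), VhaAC39-2 (d) and VhaPPA1-2 (c''). A count of 0 allows up to 3 reads, or between 0.297 and 0.354 RPM in a sample before TMM scaling, and this limit covers counting error only. Vha14-2 (F) had 1 read in 1 sample, Vha16-3 (c) had 6 reads in control 2 and 4 in mac>DfosDN 3, and Vha36-3 (D) had 0 to 8 reads. The highest of these values, 8 reads of Vha36-3 in mac>DfosDN 2 or 0.989 RPM after TMM scaling, was low but above the limit that a count of 0 allows. An accessory gene that the current annotation names VhaAC45RP, listed in the tables under another symbol and so not among the 33, had between 0 and 20 reads.

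**Figure D1:**
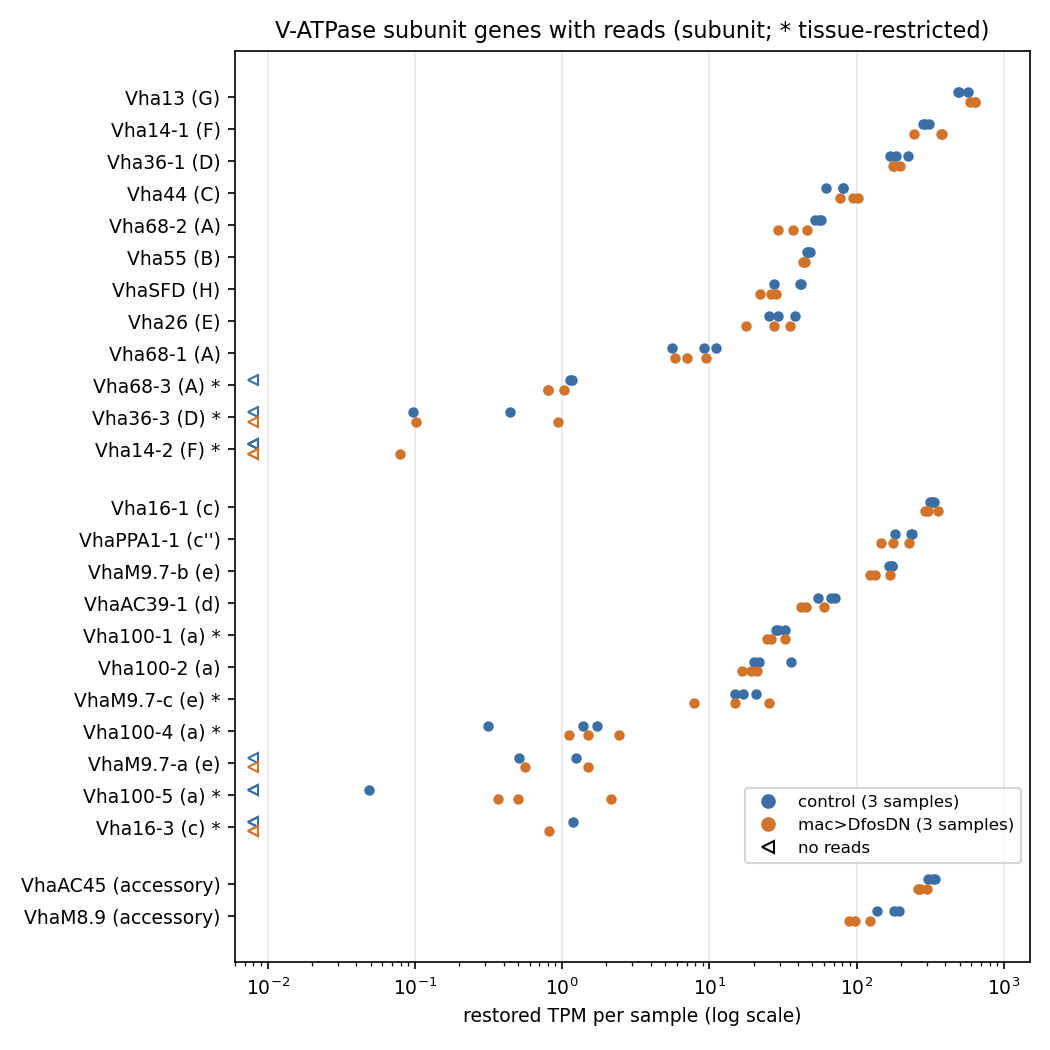
Restored TPM of the 25 V-ATPase genes with reads, on a log axis, with 1 point per sample (blue for control, orange for mac>DfosDN), the subunit in brackets and an asterisk for tissue-restricted genes. Open triangles at the left edge mark samples without a read and overlap where a group has several. The widely expressed genes sit to the right, with VhaM9.7-a as the exception, and among the tissue-restricted genes Vha100-1 and VhaM9.7-c stand highest.

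Among the V1 subunits, Vha13, which encodes subunit G of the outer stalk, had the highest TPM of any V-ATPase gene, though not the highest RPM. It measured 492, 498 and 569 TPM in the control samples and 636, 642 and 592 TPM in the mac>DfosDN samples. It was above the next gene by TPM in 6 of 6 samples. The rotor genes followed within V1 by TPM, while by mean RPM Vha44 (271) was above both. Vha14-1 (F) measured 312, 289 and 283 TPM in control and 377, 246 and 378 TPM in mac>DfosDN. Vha36-1 (D) measured 167, 225 and 186 TPM against 198, 176 and 179 TPM. Both genes overlapped between the groups.

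The other V1 genes were lower per length. Vha44 (C, which holds V1 and V0 together) measured 62.2, 80.3 and 81.2 TPM in control and 76.6, 94.0 and 102 TPM in mac>DfosDN. Vha26 (E, the partner of G in the outer stalk) measured 25.3, 37.9 and 29.5 TPM against 35.1, 27.3 and 17.8 TPM. Vha55, which encodes the ATP-binding subunit B, measured 46.7, 48.1 and 46.4 TPM against 43.5, 44.9 and 43.8 TPM. The lowest control sample of Vha55 was above the highest mac>DfosDN sample, by a small margin, whereas Vha44 and Vha26 overlapped.

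Subunits A and B alternate in the catalytic head, and subunit A had more than 1 gene with reads. Vha68-2 supplied 85.7% ± 4.22 (SD, n = 3) of the summed TPM of the A genes in control and 81.8% ± 0.341 (SD, n = 3) in mac>DfosDN, and Vha68-1 supplied 13.2% ± 3.29 and 16.2% ± 0.541. Vha68-3 is a tissue-restricted copy that starts 178 bases beyond Vha68-2 on the same strand. It had 23, 0 and 20 reads in control and 19, 13 and 15 reads in mac>DfosDN. The share of Vha68-2 was lower in each mac>DfosDN sample than in any control sample, but by a small margin. Its lowest control share was 82.38% and its highest mac>DfosDN share was 82.07%, while control 2 stood apart at 90.44%. An exact permutation test gave p = 0.1 (2-sided), the smallest value that 3 against 3 can give.

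In V0, the proteolipid Vha16-1 (c) forms most of the proton-carrying ring. It measured 315, 334 and 325 TPM in control and 308, 355 and 290 TPM in mac>DfosDN, and the groups overlapped. By RPM, Vha16-1 was first among the V-ATPase genes with a mean of 805 and Vha13 was at rank 3 with 439. The study's methods name a library kit that reads 3' ends, for which the division by length need not hold, so the order of genes depends on the scale. VhaAC45 was in the first 4 and Vha68-3 was last among the 20 genes tested on both scales.

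The other ring and stalk genes of V0 were of intermediate level. VhaPPA1-1 (c'', the second proteolipid of the ring) measured 182, 235 and 238 TPM in control and 226, 147 and 176 TPM in mac>DfosDN. VhaAC39-1 (d, which joins the ring to the central stalk) measured 54.8, 71.2 and 66.7 TPM against 59.6, 45.6 and 41.9 TPM. VhaM9.7-b (e) measured 175, 167 and 175 TPM against 168, 123 and 134 TPM. Each of the 3 overlapped between the groups in 1 mac>DfosDN sample, replicate 1, which lay within or next to the control range.

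VhaM9.7-b supplied 90.5% ± 1.28 (SD, n = 3) of the summed TPM of the subunit e genes in control and 89.8% ± 4.12 (SD, n = 3) in mac>DfosDN. Nearly all of the rest was VhaM9.7-c, classed as tissue-restricted, with 104, 114 and 123 reads in control and 162, 83 and 51 reads in mac>DfosDN. The mac>DfosDN samples lay on both sides of the control samples. The annotated span of VhaM9.7-c is overlapped by Teh2 on the same strand, so the reads of these 2 genes may not be fully told apart.

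Subunit a was the exception to 1 dominant gene. It forms the path for protons through the membrane and is known to direct the pump to a particular membrane. Vha100-1 (3R:29131193-29137980, + strand, BDGP6.54), best known in flies from neurons and their synaptic vesicles, had 766, 849 and 678 reads in control and 655, 532 and 823 reads in mac>DfosDN. The widely expressed Vha100-2 (3R:18390323-18399169, - strand) had 535, 917 and 493 reads against 406, 405 and 516 reads. Per length, Vha100-1 was above Vha100-2 in 5 of 6 samples, control 2 being the exception, and it supplied 53.3% ± 5.82 (SD, n = 3) of the summed TPM of the a genes in control and 56.4% ± 2.54 (SD, n = 3) in mac>DfosDN. The shares of Vha100-2 were 44.6% ± 5.96 and 38.4% ± 3.13. Both genes overlap another gene on the opposite strand (Alg13 for Vha100-1 and Vti1b for Vha100-2), as do 9 of the 33 genes in all, and whether the counting used strand is not given in the sources used here.

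The neuron markers measured beside it were uneven. Their sum was between 87.2 and 108 TPM in control and between 78.7 and 112 TPM in mac>DfosDN, most of it from Syx1A, whose product also serves membrane traffic outside neurons. elav, a marker of neuronal nuclei, had means of 16.1 and 20.2 TPM. The synaptic genes nSyb and brp had means between 0.271 and 0.417 TPM, and Syt1 had 0.0553 TPM in control and 0.289 TPM in mac>DfosDN. In the same samples Vha100-1 measured 29.98 TPM ± 2.27 (control, SD, n = 3) and 27.9 TPM ± 4.28 (mac>DfosDN, SD, n = 3). The part of elav-expressing cells in the level of Vha100-1 was not tested.

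The remaining a genes were rare. Vha100-4, which lies 517 bases beyond Vha100-2 on the same strand, had 39, 30 and 6 reads in control and 23, 27 and 51 reads in mac>DfosDN. Vha100-5 (2L:11738948-11744524, + strand) had 0, 0 and 1 read in control and 11, 7 and 48 reads in mac>DfosDN. It too is overlapped on the opposite strand, by asRNA:CR44144, so its reads may not be fully told apart from those of that gene. The groups of Vha100-5 did not overlap. Among the genes tested, which do not include it, 12.1% did not overlap and were higher in mac>DfosDN. The ratio of its reads, relative to the library totals, was 71.3 with a 95% exact interval of 12.4 to 2857 that covers counting error only. Replicate 3 of mac>DfosDN holds 48 of the 66 mac>DfosDN reads, and without it, a check added after the data were seen, the ratio was 29.6 (95% exact interval 4.67 to 1232). Without control 1 it was 47.4, without control 2 it was 46.2, and the single control read is in control 3. Vha100-5 did not pass the filter on low reads. In the fit with no filter its log2 fold change was 0.87 (unadjusted p = 0.0304, adjusted p = 0.327, limma), so it was not called. Its share of the a genes was 1.87% ± 1.59 (SD, n = 3) in mac>DfosDN, with replicate 3 at 3.69% and the other samples at 0.800% and 1.12%. The midgut marker GATAe, a gene of the gut lineage, was also higher in mac>DfosDN, with 26, 18 and 1 reads against 109, 120 and 51 reads (log2 fold change 1.61, adjusted p = 0.0473, limma; not called by limma-voom), and its part in the Vha100-5 reads was not tested.

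**Figure D2:**
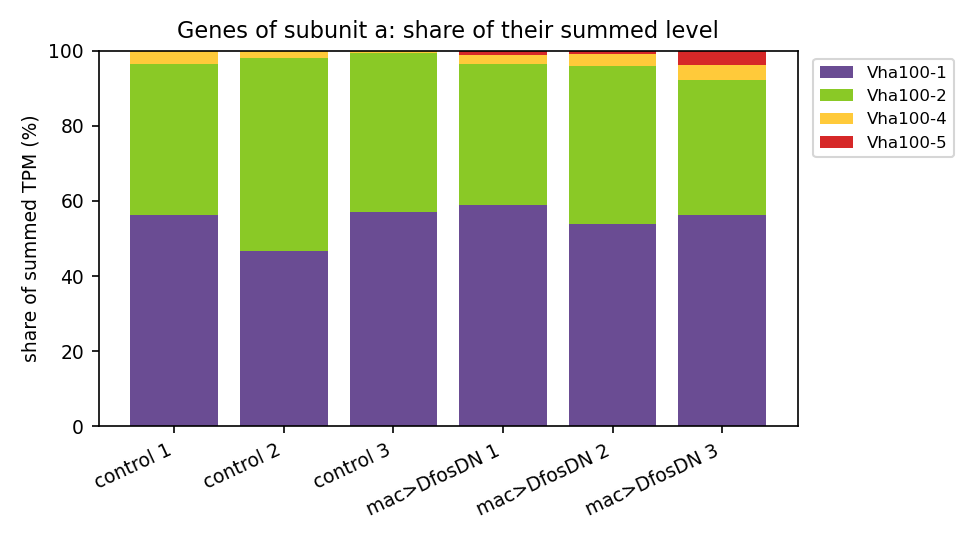
Share of each gene in the summed restored TPM of the subunit a genes, as stacked bars that add to 100%, 1 bar per sample. Vha100-1 and Vha100-2 fill most of every bar, Vha100-1 is the larger except in control 2, and Vha100-5 is visible in the 3 mac>DfosDN samples, most in replicate 3.

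Next, mac>DfosDN was compared with control to see which V-ATPase genes changed when Dfos function was blocked in macrophages. At an adjusted p under 0.05 (limma on log2(TPM + 1), Benjamini-Hochberg over 7655 genes), 0 of the 20 V-ATPase genes tested differed, against 3% of all genes tested, or 230 genes (1.62% lower and 1.38% higher). By limma-voom, the test of the study's methods, on the restored reads, 1 of the 20 was called lower, VhaM8.9, against 3.51% of all genes by that test (2.13% lower and 1.38% higher). At an unadjusted p under 0.05, 3 of the 20 differed, VhaM8.9, Vha68-2 and VhaSFD, all lower in mac>DfosDN, against 17.7% of all genes (8.61% lower and 9.08% higher). The groups did not overlap for 5 of the 20 genes, 4 lower and 1 higher in mac>DfosDN, against 23.2% of all genes (11.1% lower and 12.1% higher). Counted in either direction, the V-ATPase genes were close to these background shares. In bulk samples, fewer cells of a type and less RNA per cell cannot be told apart.

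Most point estimates were below 0. Of the 20 genes, 15 had a log2 fold change below 0, against 48.3% of all genes tested, and the median was -0.20, against 0.01 over all genes. Without mac>DfosDN replicate 2 the median was -0.12, without control replicate 3 it was also -0.12, and with no filter on low reads, which adds 5 genes, it was -0.09. Without mac>DfosDN replicate 3, 12 of the 20 were below 0. The median was -0.24 for the 16 widely expressed genes tested and 0.03 for the 4 tissue-restricted genes tested. Those 4 were mixed: Vha100-1 (-0.11), VhaM9.7-c (-0.24), Vha68-3 (0.17) and Vha100-4 (0.36). Vha68-3 and Vha100-4 had means of 0.823 and 1.415 TPM, near the 1 that was added before the log. By sector the median was -0.07 for 10 genes of V1, -0.25 for 8 genes of V0 and -0.47 for the 2 accessory genes. The summed level of the V1 genes was 1261 TPM ± 52.2 in control and 1375 TPM ± 74.6 in mac>DfosDN (SD, n = 3), and that of the V0 genes was 855 TPM ± 55.3 against 758 TPM ± 65.8. The groups overlapped for both sums. In mac>DfosDN the mean of the V1 sum was 1.09 times that of control on TPM and 1.045 times on RPM. That of the V0 sum was 0.887 and 0.912 times. Vha13 alone had means of 520 TPM in control and 623 TPM in mac>DfosDN, while 6 of the 10 V1 genes tested had a log2 fold change below 0.

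**Figure D3:**
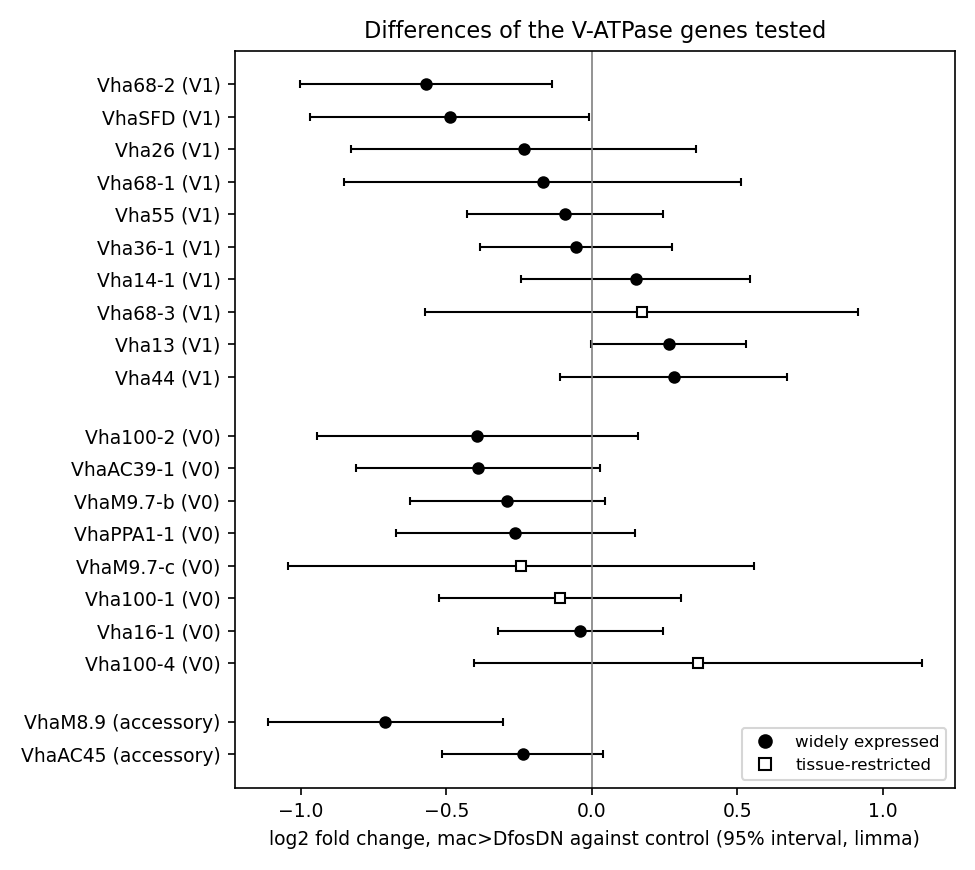
Log2 fold change of mac>DfosDN against control with its 95% interval from limma for the 20 V-ATPase genes tested, by sector, with filled circles for widely expressed and open squares for tissue-restricted genes. The intervals of VhaM8.9, Vha68-2 and VhaSFD lie below 0 before adjustment, and those of the other 17 genes include 0.

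VhaM8.9 had the smallest p of the V-ATPase genes. It encodes the fly homologue of ATP6AP2, the prorenin receptor of mammals, an accessory protein that acts in assembly of the pump, and lies at 3R:9260638-9262590 on the + strand. It had 1660, 2083 and 2011 reads in control and 1360, 949 and 1004 reads in mac>DfosDN. Every mac>DfosDN sample was below every control sample. The level was 170 TPM ± 29.9 in control and 103 TPM ± 17.3 in mac>DfosDN (SD, n = 3), with a log2 fold change of -0.71 (SE 0.18) and an adjusted p of 0.0702 (limma), above the threshold. The call depended on the test: the adjusted p was 0.0482 by limma-voom and 0.0361 on RPM, an alternative added after the data were seen. Without control replicate 1 it was 0.0416. Over 18 alternatives the log2 fold change lay between -0.86 and -0.60 and the adjusted p between 0.0361 and 0.828.

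The other accessory gene, VhaAC45, encodes a membrane protein that helps to guide the pump. It measured 339, 333 and 306 TPM in control and 262, 268 and 300 TPM in mac>DfosDN. The groups did not overlap, though mac>DfosDN replicate 3 came close to control replicate 3. The log2 fold change was -0.24 (95% interval -0.51 to 0.04, adjusted p = 0.359, limma). The summed level of the 2 accessory genes was between 476 and 511 TPM in control and between 366 and 389 TPM in mac>DfosDN.

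Vha68-2, the main gene of catalytic subunit A, lies at 2L:12974322-12978607 on the + strand. It measured 57.3, 52.6 and 55.5 TPM in control and 36.9, 29.1 and 46.2 TPM in mac>DfosDN. All 3 mac>DfosDN samples were below the control samples and were more widely spread. The log2 fold change was -0.57 (SE 0.19, adjusted p = 0.156, limma). Its partner in the head, Vha55, had a log2 fold change of -0.09 with a 95% interval of -0.43 to 0.24.

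VhaSFD encodes subunit H, which regulates the ATPase activity of V1. It measured 27.4, 41.7 and 41.0 TPM in control and 28.3, 26.2 and 22.2 TPM in mac>DfosDN. Control replicate 1 lay within the mac>DfosDN range. The log2 fold change was -0.49 (SE 0.21, adjusted p = 0.275, limma).

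Vha13 was the 1 gene tested whose samples were all higher in mac>DfosDN. Its means were 520 TPM ± 43.1 in control and 623 TPM ± 26.9 in mac>DfosDN (SD, n = 3), with a log2 fold change of 0.26 (SE 0.12, adjusted p = 0.286, limma). The outer stalk partner Vha26 had a log2 fold change of -0.23 with a 95% interval of -0.83 to 0.36, so the direction of Vha26 was not resolved. Vha44 (0.28), Vha14-1 (0.15), Vha100-4 (0.36) and Vha68-3 (0.17) were the other genes with a log2 fold change above 0, and none passed the test.

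The best measured V0 gene, Vha16-1, had a log2 fold change of -0.04 with a 95% interval of -0.32 to 0.24. For Vha100-1 the log2 fold change was -0.11 with an interval of -0.53 to 0.31, and for Vha100-2 it was -0.39 with an interval of -0.94 to 0.16. VhaM9.7-c, with far fewer reads, had an interval of -1.04 to 0.56. Each of these intervals includes 0 and leaves differences of either sign within its bounds.

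**Figure D4:**
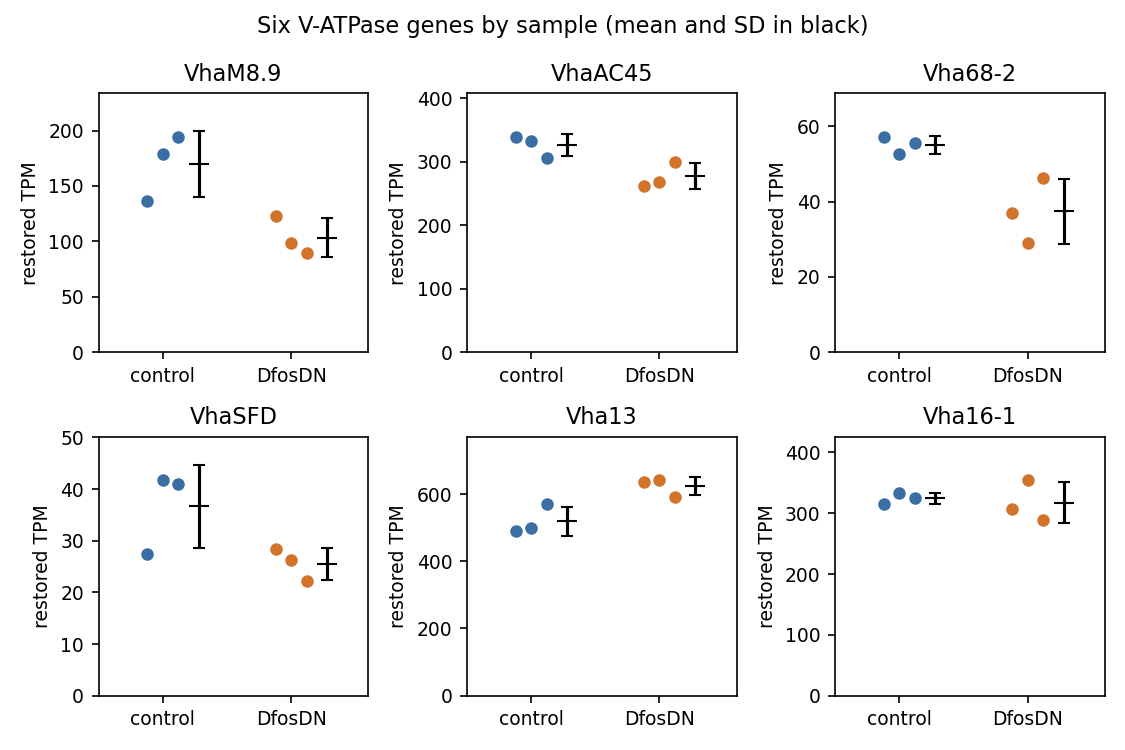
Restored TPM by sample of VhaM8.9, VhaAC45, Vha68-2, VhaSFD, Vha13 and Vha16-1, each axis starting at 0, with the mean and SD of 3 samples in black. The control and mac>DfosDN samples are separate for VhaM8.9, VhaAC45, Vha68-2 and Vha13, and overlap for VhaSFD and Vha16-1.

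The wider set of acidification and lysosome genes was read from the same fit. Of the 37 distinct names listed, 32 were found in the tables and 31 were tested, of which 0 were called lower and 0 higher by limma on log2(TPM + 1), against 3% of all genes. At an unadjusted p under 0.05, 4 were lower and 3 higher, against 8.61% and 9.08% of all genes, and by limma-voom 1, Rab7, was called lower, against 2.13% of all genes. These shares are near the background. The log2 fold change was below 0 for 19 of the 31, with a median of -0.09. The lowest was that of Mitf, the transcription factor known to act on V-ATPase genes in flies (log2 fold change -0.96, adjusted p = 0.146, limma). It had 222, 148 and 237 reads in control and 90, 46 and 117 reads in mac>DfosDN. Its groups did not overlap, as was so for 11.1% of all genes tested in that direction. The part of Mitf in the V-ATPase differences was not tested. Rab7, the small GTPase of late endosomes, had the smallest p, with means of 462 and 261 TPM and a log2 fold change of -0.82 (adjusted p = 0.0636, limma). The highest was Rab5, of early endosomes, with means of 215 and 302 TPM and a log2 fold change of 0.49 (adjusted p = 0.127, limma). Mitf was not alone in this list, as the groups of Rab7 and Rab5 did not overlap either.

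Markers of cell types were read from the same fit. Of the 13 macrophage markers tested, 11 had a log2 fold change below 0, against 48.3% of all genes, with a median of -0.75. Their values ran from -1.23 for Glt to 0.94 for gcm, with srp at -0.07 and sn at 0.14. At an adjusted p under 0.05, 1 was called by limma on log2(TPM + 1), against 3% of all genes. This was gcm, a regulator of the macrophage fate, which was higher (log2 fold change 0.94, adjusted p = 0.0188, limma). By limma-voom, SPARC, NimC4 and Glt were also called, all lower, against 2.13% of all genes called lower by that test. Of the 3 crystal cell markers tested, PPO2, a prophenoloxidase gene, was called lower, with a log2 fold change of -2.09. By limma-voom, PPO1 was also called lower. The other one, lz, was not lower, with a log2 fold change of 0.08 (adjusted p = 0.947, limma). It had 68, 23 and 52 reads in control and 65, 66 and 18 reads in mac>DfosDN. None of the neuron, glia, muscle, epithelium or yolk markers tested was called by either test. Of the 3 fat body markers, Lsp1alpha and Lsp2 were at 0 in all samples and Fbp1 was at most 0.0438 TPM, and germ cell markers to at most 1.26 TPM. The part of the macrophage and crystal cell markers in the V-ATPase differences was not tested.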

How the data were processed

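RNA-seq was done on 3 control and 3 mac>DfosDN samples. By the study's methods, reads from 3' end libraries (the sample labels describe a standard Illumina preparation) were mapped to BDGP6 with STAR 2.5.1b and counted with HTSeq 0.5.4p3 on FlyBase annotation. The deposited files hold a score per gene: a TPM value that lost its decimal point from 1 upward. How the point was lost is not given in the sources used here.

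Within a sample, a value is proportional to its reads over the exon length of the gene (BDGP6.54, Ensembl 115), with a factor found from intact values, so each value was restored to whole reads. Where several powers of 10 gave whole reads, the likeliest under a negative binomial model with a mean for each group was taken, at a posterior of at least 0.9. Of 17494 genes, 5335 were at 0, 42 had no length, 17 never came out whole, 217 stayed uncertain and 11883 were restored, 128 of them with a length taken from the values. Restored TPM values summed to between 990568 and 1005721 per sample. The tolerance for whole reads was tightened after a first run gave sums far above the TPM total, a guard on common factors was added with it, and 51 outdated gene identifiers were matched by symbol after Vha44 was found without a length. The power above the smallest was taken for 7 values of V-ATPase genes. Since a power is judged against the gene's other samples, true changes of about 10-fold can be lost.

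Genes with at least 10 reads in at least 3 samples and at least 15 in total were tested, 7655 in all. The cutoff of 10 holds at the median library total and was scaled to the library total of each sample. The test was limma 3.58.1 (intensity trend) in R 4.3.3 on log2(TPM + 1). TPM was scaled by TMM factors (30% and 5% trimmed) computed without a count model package. The study used TMM, voom and limma. Python 3.11.15, NumPy 2.4.6, SciPy 1.17.1 and Matplotlib 3.10.9 were used, and the procedure was tested on simulated data. A fold change on the log2(TPM + 1) scale understates the change of low genes. The V-ATPase genes, their classes and the lists were chosen with earlier results of these data known. Values by sample are given for the most-read gene of each subunit and for restricted genes with a mean of at least 10 reads in a group, the lists are given by counts with their extremes, and VhaSFD, VhaAC45 and the genes near 0 are among those named. Sequences are not shown.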

Additional observations from a re-analysis of the deposited data

How the results depend on the processing

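VhaM8.9, the 1 V-ATPase gene called under any setting, kept its direction under 18 alternatives. It was called under limma-voom (-0.71), on RPM (-0.71, chosen after seeing the data) and without control replicate 1 (-0.86). So 1 of the 20 V-ATPase genes tested was called lower under limma-voom and on RPM, against 3.51% and 4.86% of all genes called in either direction. Between 0 and 1 was called when a sample was left out, against between 1.09% and 2.79% of all genes. No V-ATPase gene was called higher under any of these alternatives. With the smallest power of 10 for every value, the adjusted p of VhaM8.9 rose to 0.828 and the log2 fold change of Vha55 was 0.92, since this setting lowers restored values by 10-fold in single samples. The log2 fold change of Vha68-3 was -0.20 without control replicate 2, which had no read of it, and that of VhaM9.7-c was 0.14 without mac>DfosDN replicate 3. The cause of these shifts was not tested further. Over all genes, the count lower and the count higher were 73 and 60 with restoration without the groups, 12 and 6 with the smallest power, and 41 and 34 with no filter on low reads. The count lower was 219 on RPM. Leaving out each sample in turn gave between 34 and 106 genes lower and between 34 and 102 higher. Fewer samples leave a weaker test.

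Replicate numbers are shared by the groups in the labels, but same-numbered samples did not deviate together (r = -0.03, 0.03 and 0.02), so the numbers were not treated as pairs. With the replicate number as a block, 0 V-ATPase genes were called, the smallest adjusted p was 0.115 and 2.44% of all genes were called.

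Depth limits the rare paralogues, since a count of 0 in a sample allows up to 3 reads. The restoration rests on an annotation later than the authors' own, and 3 against 3 samples limits single-value exact tests to p = 0.1.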
